A study of Homo sapiens with 8 samples.

Results

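The genes described here make, limit or sense 3 families of vessel-active signals: nitric oxide, endothelin-1 and the prostanoids. The set was fixed by name and holds 10 genes, NOS3, DDAH1, DDAH2, ARG2, GUCY1A3, EDN1, ECE1, PTGS1, PTGS2 and PTGIS. All 10 symbols were found among the 23346 genes of the deposited table. They were measured by sequencing polyadenylated RNA from hCMEC/D3, a human brain microvascular endothelial line immortalised with telomerase and SV40 large T antigen that serves as a laboratory stand-in for the blood-brain barrier and may differ from endothelium in the brain. There were 8 libraries, all labelled as replicates of the same line, with no treatment, dose or time given, so no conditions were compared. The labels do not say whether the replicates came from separate cultures, so the p-values below measure only the spread between these samples, which may be technical.

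In vessels, NOS3 in endothelial cells makes nitric oxide from arginine, and the gas relaxes smooth muscle by activating soluble guanylate cyclase there. Asymmetric dimethylarginine (ADMA) inhibits the synthase, the DDAH enzymes break ADMA down, and arginase competes for arginine. Endothelin-1, a strong constrictor, is cut from the EDN1 product first by furin-like proteases and then by ECE1. Cyclooxygenases (PTGS1 and PTGS2) turn arachidonic acid into the intermediate from which PTGIS makes prostacyclin, a dilator that also keeps platelets from clumping.

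The table gives raw counts and the authors' normalised values. Levels are given here as CPM (the count scaled to sequencing depth, with library sizes adjusted by the TMM method) and, wherever genes are set against each other, as RPKM, which is CPM per kilobase of the annotated canonical transcript. A gene was called detected when it reached 1 CPM in all 8 libraries, which 51.3% of the listed genes did. Total counts ran from 69388544 to 90205244 per library. Every count was even, so sampling error was computed on counts divided by 2, called halved counts. Why the counts are even is not given in the sources used here. Any 2 libraries differed beyond sampling noise (chi-square per degree of freedom of at least 5.04 over the 28 pairs of libraries). Long transcripts were counted less and short ones more in replicates 2, 7 and 8: the slope of a library's deviation per doubling of transcript length was -0.22, -0.10 and -0.33 (log2) there, against 0.08 to 0.14 in the other 5. All 10 endothelial marker genes examined were detected, with a summed level of 2380 to 4570 CPM. Of 9 mural and smooth muscle markers 6 were detected (sum 51.1 to 76.3 CPM, with DES, NOTCH3 and KCNJ8 not detected). Of 6 fibroblast markers 2 were detected, COL1A1 and COL1A2 (sum 142 to 211 CPM), and none of 4 astrocyte or 5 microglial markers was (AQP4 had no counts).

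Of the 10 genes, 7 were detected, beside 51.3% of all listed genes, and 3 were not: NOS3, GUCY1A3 and PTGS2. With a limit of 0.5 CPM, or of 10 counts, in every library, 8 were detected, NOS3 among them. Per transcript length the order was EDN1, ECE1, DDAH2, DDAH1, ARG2, PTGS1, PTGIS, NOS3, PTGS2 and GUCY1A3. The highest, EDN1, had a mean of 234 RPKM and the lowest, GUCY1A3, had counts in 1 library only. Between neighbours in this order, the ranges over libraries overlapped for EDN1 and ECE1, DDAH2 and DDAH1, PTGS1 and PTGIS, and NOS3 and PTGS2, and did not overlap for the others. PTGS1 was nevertheless above PTGIS in 8 of 8 libraries, as was NOS3 above PTGS2, whereas EDN1 was above ECE1 and DDAH2 above DDAH1 in 6 of 8. The median of the 7 detected members was 45.1 RPKM, beside 11.4 RPKM over the 11632 detected genes with a known length. Of these members, ARG2 (6.50), PTGS1 (4.15) and PTGIS (2.95 RPKM) lay below 11.4. Over all 10 members, undetected ones included, the median was 5.32 RPKM.

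**Figure D1:**
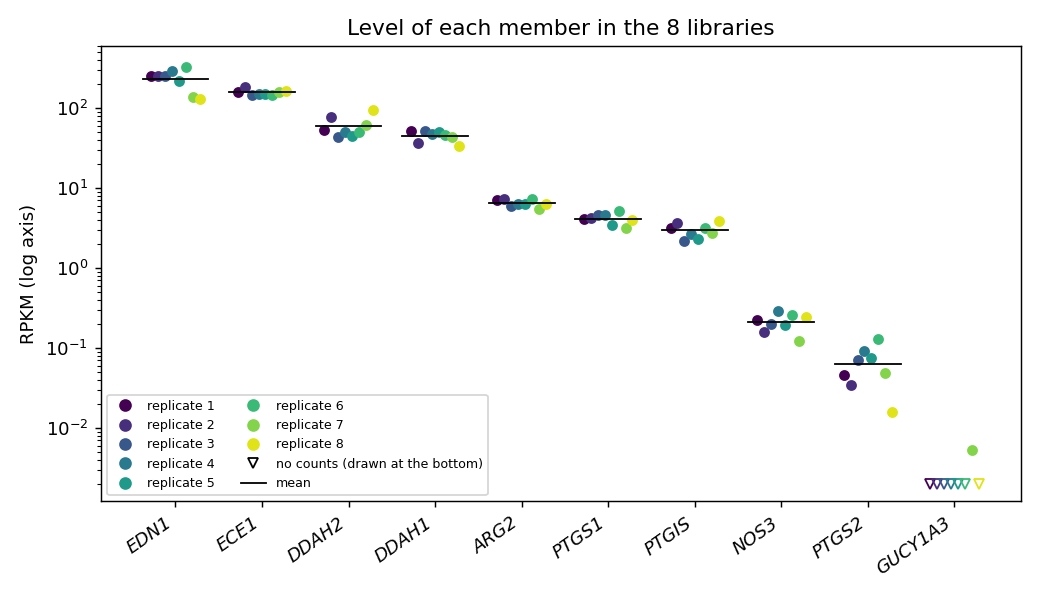
Level of each of the 10 genes (x axis, ordered by mean) in RPKM on a log axis, with 1 point per library, coloured by replicate, a line at the mean, and open triangles at the bottom for libraries with no counts. EDN1 (mean 234) and ECE1 (158) stand at the top, NOS3 (0.211) and PTGS2 (0.0638) near the bottom, and GUCY1A3 has counts only in replicate 7.

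Promoter windows show what lies at the start sites of the highest gene, EDN1, and of the endothelial synthase NOS3 and the inducible cyclooxygenase PTGS2, which were not detected. They come from the RefSeq promoter table (GRCh38.p14), run from 250 bases before to 50 after a start site, and were placed on GRCh37 by exact match. Windows were found for 9 of the 10 genes, and for genes with several the one nearest the start of the canonical transcript was taken. Capitals mark the letters TATAAA (the TATA box), GATAA (the core bound by GATA factors) and GGGCGG (the GC box bound by SP1), on either strand. EDN1 lies at chr6:12290344-12290643 (plus strand), NOS3 at chr7:150690620-150690919 (plus strand) and PTGS2 at chr1:186649506-186649805 (minus strand), each written 5′ to 3′ along the gene.
EDN1: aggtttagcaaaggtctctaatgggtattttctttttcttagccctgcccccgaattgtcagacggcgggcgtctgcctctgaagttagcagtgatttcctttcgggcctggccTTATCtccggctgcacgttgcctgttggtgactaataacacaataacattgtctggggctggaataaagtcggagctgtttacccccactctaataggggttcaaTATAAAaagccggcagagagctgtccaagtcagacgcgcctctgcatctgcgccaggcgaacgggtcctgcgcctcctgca
NOS3: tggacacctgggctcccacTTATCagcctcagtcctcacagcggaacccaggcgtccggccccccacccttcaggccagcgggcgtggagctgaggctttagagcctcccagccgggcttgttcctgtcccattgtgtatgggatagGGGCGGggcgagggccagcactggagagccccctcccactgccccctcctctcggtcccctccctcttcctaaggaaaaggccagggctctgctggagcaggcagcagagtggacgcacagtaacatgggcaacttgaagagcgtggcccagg
PTGS2: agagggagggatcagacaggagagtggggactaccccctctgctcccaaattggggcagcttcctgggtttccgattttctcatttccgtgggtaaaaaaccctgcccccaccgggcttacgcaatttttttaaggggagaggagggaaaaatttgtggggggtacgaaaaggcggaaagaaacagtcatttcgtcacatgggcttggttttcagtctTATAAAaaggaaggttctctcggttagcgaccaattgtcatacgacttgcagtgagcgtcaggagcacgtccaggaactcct
The EDN1 window holds a TATAAA at -31 and a GATAA, on the opposite strand, at -136 from the start site. PTGS2 has a TATAAA at -32. The NOS3 window holds no TATAAA, but a GATAA on the opposite strand at -231 and a GGGCGG at -103. RefSeq's NOS3 start lies 2765 bases downstream of that of the canonical GENCODE transcript. Among 35116 promoter windows of the same length, 11.5% hold TATAAA, 22.7% GATAA and 45.0% GGGCGG. Of the other windows, that of ARG2 has 2 matches to TGACGTCA, the cyclic AMP response letters, which 1.85% of all windows hold, and 5 to GGGCGG, 2 of them overlapping. These are matches of letters, not measured binding.

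The endothelin branch held the most abundant transcripts of the set. EDN1 (chromosome 6, 12290529 to 12297427, GRCh37, plus strand, 5 exons), which encodes the precursor of endothelin-1, had 268 CPM at its lowest, a median of 514 and 674 at its highest (mean 476 ± 141, SD, n = 8). Its 234 ± 69.2 RPKM (SD, n = 8) was above 97.9% of detected genes. Replicates 7 and 8 were low, at 281 and 268 CPM, and replicates 4 and 6 were high, at 588 and 674, with 445 to 520 CPM in the other 4.

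ECE1 (chromosome 1, 21543740 to 21672034, minus strand, 19 exons), the membrane protease that releases active endothelin-1, was the steadiest of the 7 detected members in relative terms. It had 736 CPM at its lowest, a median of 785 and 929 at its highest (mean 798 ± 62.3, SD, n = 8, a coefficient of variation of 7.81%). Replicate 2 was the highest. ECE1 stood at 158 ± 12.3 RPKM (SD, n = 8), above 96.5% of detected genes. Another listed gene within its span, LOC100506801, had 0.427 ± 0.121 CPM (SD, n = 8).

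Genes were compared within libraries for 8 pairs, by an exact permutation test that flips the sign of each library's log2 ratio (two-sided). The pairs were chosen with earlier results of these data known, so their p-values are descriptive. EDN1 and ECE1 were close: the log2 ratio of EDN1 to ECE1 on RPKM + 0.1 was 0.51 ± 0.53 (SD, n = 8), above 0 except in replicates 7 and 8 (exact permutation p = 0.0391, adjusted over the 8 pairs 0.0521). It passed the threshold of 0.05 without replicate 7 (0.61, adjusted p = 0.0417, exact permutation test, n = 7) or without replicate 8 (0.63, adjusted p = 0.0417, exact permutation test, n = 7). Those are the libraries with a ratio below 0, so leaving out either raises the mean. Leaving out any other single library gave an adjusted p of 0.0833 to 0.104 (exact permutation test, n = 7). On the authors' normalised values the ratio was 0.08 ± 0.47. The order of the 2 transcripts thus depended on the scale and on replicates 7 and 8.

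Among the other genes of endothelin processing, FURIN (a protease of the secretory pathway) had 38.6 ± 6.51 RPKM, PCSK7 of the same family 14.12 ± 1.899 and ECE2, a relative of ECE1, 1.65 ± 0.368 RPKM (SD, n = 8). In all, 7 of the 12 ligand and processing genes were detected, near the 51.3% of all genes in the data. Of the other ligands, EDN2 was detected at 1.58 ± 0.286 CPM and EDN3 was not, at 0.0425 ± 0.0489 CPM (SD, n = 8). Endothelin receptors were low: EDNRA, the receptor that mediates constriction in smooth muscle, had 9.42 ± 1.87 CPM (SD, n = 8), from 6.67 in replicate 7 to 12.7 in replicate 1. EDNRB, the receptor usually ascribed to endothelium, was not detected, at 0.0403 ± 0.0356 CPM (SD, n = 8) with no counts in 2 libraries. EDNRA is best known from mural cells. Of the 9 mural markers, CSPG4, RGS5, PDGFRB, ACTA2, CNN1 and MYH11 were detected, with means of 32.9, 14.4, 9.57, 4.74, 2.91 and 2.66 CPM. NOTCH3, DES and KCNJ8 were not, with means of 0.508, 0.180 and 0.0272 CPM, and the part of such cells in the EDNRA level was not tested. In bulk RNA, few cells with a transcript and little of it in every cell cannot be told apart.

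In the nitric oxide branch the synthase was close to the detection level and the enzymes around it were not. NOS3 (chromosome 7, 150688144 to 150711687, plus strand, 27 exons) had 0.536 CPM at its lowest, a median of 0.917 and 1.27 at its highest (mean 0.920 ± 0.237, SD, n = 8), and reached 1 CPM in 3 of 8 libraries, replicates 4, 6 and 8. Its count was 22 to 46 halved counts per library, and an exact 95% Poisson interval, which covers counting error only, was 0.336 to 0.811 CPM in the lowest library (replicate 7) and 0.927 to 1.69 CPM in the highest (replicate 4). Per length NOS3 stood at 0.211 ± 0.0542 RPKM (SD, n = 8), and 0.181% of the detected genes lay below it. NOS3 itself failed the detection rule, so a low share was largely set in advance, and other undetected genes are left out of it. ATG9B lies on the opposite strand and overlaps the listed span of NOS3 by 2391 bases, with 0 bases shared between annotated exons. It had 0.161 ± 0.0608 CPM (SD, n = 8), and whether counting used strand is not given in the sources used here. The other nitric oxide synthases were lower: NOS1, the neuronal form, had 0.0304 ± 0.00841 RPKM, and NOS2, the inducible form, 0.0110 ± 0.00988 RPKM (SD, n = 8) with no counts in 2 libraries.

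DDAH1 and DDAH2, which remove the inhibitor ADMA, stood above 84.8% and 88.9% of detected genes by RPKM. DDAH1 (chromosome 1, 85784168 to 86044046, minus strand, 6 exons) had 133 CPM at its lowest, a median of 184 and 203 at its highest (mean 178 ± 26.5, SD, n = 8). DDAH2 (chromosome 6, 31694817 to 31698039, minus strand, 6 exons) had 52.3 CPM at its lowest, a median of 61.4 and 114 at its highest (mean 70.9 ± 21.6, SD, n = 8). Replicates 2 and 8 were the lowest for DDAH1 (145 and 133 CPM) and the highest for DDAH2 (92.1 and 114 CPM).

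The transcript of DDAH2 has 1193 bases and that of DDAH1 3939. Replicates 2 and 8 had the steepest slopes with transcript length, and the part of this in the DDAH1 and DDAH2 levels was not tested. On the authors' values, which adjust for length and GC content, DDAH2 had an SD of 0.15 (log2) in place of 0.39 on log2(CPM + 1), and DDAH1 0.06 in place of 0.23. On that scale DDAH2 was highest in replicate 1, at 7.48, and lowest in replicate 5, at 7.08. Per length DDAH2 had 59.4 ± 18.1 RPKM and DDAH1 45.1 ± 6.74 RPKM (SD, n = 8). The log2 ratio of DDAH2 to DDAH1 was 0.36 ± 0.62, from -0.23 in replicate 3 to 1.49 in replicate 8 (positive in 6 of 8 libraries, exact permutation p = 0.172, adjusted p = 0.196, n = 8). The direction depended on the scale and on the libraries used. It was -0.51 ± 0.18 on the authors' values (adjusted p = 0.0104, exact permutation test, n = 8), 0.36 ± 0.18 with the length and GC trend removed (adjusted p = 0.0104, exact permutation test, n = 8) and -0.04 ± 0.16 without replicates 2, 7 and 8.

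ARG2 (chromosome 14, 68086579 to 68118436, plus strand, 8 exons), the mitochondrial arginase, had 10.3 CPM at its lowest, a median of 12.01 and 14.05 at its highest (mean 12.4 ± 1.31, SD, n = 8). Replicate 7 was the lowest and replicate 6 the highest. It stood at 6.50 ± 0.683 RPKM, above 34.8% of detected genes. Its annotated exons overlap those of VTI1B, on the opposite strand, by 904 bases (570 bases between the listed spans), and VTI1B had 44.5 ± 6.71 CPM (SD, n = 8), so part of the ARG2 count is uncertain. The liver arginase ARG1 was not detected, at 0.314 ± 0.155 CPM (SD, n = 8). ARG2 exceeded NOS3 in 8 of 8 libraries by a log2 ratio of 4.42 ± 0.25 on RPKM + 0.1 (exact permutation p = 0.00781, adjusted p = 0.0125, n = 8). No smaller p-value than 0.00781 is possible here with 8 libraries. EDN1 exceeded NOS3 by 9.51 ± 0.43 in 8 of 8 libraries (exact permutation p = 0.00781, adjusted p = 0.0125, n = 8), with the smallest ratio, 8.58, in replicate 8. The direction of both could already be read from the levels: NOS3 had at most 1.27 CPM, ARG2 at least 10.3 and EDN1 at least 268. The size of these ratios depends on the added value, since NOS3 is low: with 1 added in place of 0.1 they were 2.63 for ARG2 and 7.54 for EDN1.

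Most of the listed genes that feed or bind nitric oxide synthase were detected, beside 51.3% of all genes in the data. For arginine supply, all 4 genes outside the synthases were detected, led by the cationic amino acid carrier SLC7A2 (38.6 ± 16.2 RPKM), and the citrulline-recycling enzymes ASS1 (28.4 ± 9.22) and ASL (19.4 ± 6.54 RPKM, SD, n = 8). Of the tetrahydrobiopterin genes, which supply the synthase's cofactor, 6 of 6 were detected, with a median of 15.2 RPKM: among them were PTS at 19.3 ± 3.22 and GCHFR, which restrains the pathway's first enzyme, at 16.4 ± 7.50 RPKM (SD, n = 8). Of the 12 genes in the list of competitors and inhibitors of nitric oxide synthesis, 10 were detected. That list also holds DDAH1 and DDAH2, which act the other way by removing ADMA. Caveolin-1 (CAV1), which binds and inhibits NOS3 in caveolae, had 315 ± 19.9 RPKM, PRMT1, the main enzyme of asymmetric arginine methylation, 114 ± 25.7, and NOSIP, a NOS3-binding protein, 52.6 ± 23.5 RPKM (SD, n = 8). All 7 partner genes listed for NOS3 were detected, with CALM2 (calmodulin) at 711 ± 59.3, HSP90AA1 at 308 ± 43.7 and DYNLL1 at 304 ± 99.6 RPKM (SD, n = 8). CALM2, HSP90AA1 and DYNLL1 have close copies or pseudogenes that could share reads.

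Of the genes on the receiving side of nitric oxide, 2 of 11 were detected, beside 51.3% of all genes in the data. GUCY1A3 (chromosome 4, 156587862 to 156658214, plus strand, 10 exons), the alpha subunit of soluble guanylate cyclase, had 0 counts in 7 of 8 libraries. A count of 0 allows up to 0.0665 to 0.0880 CPM at these depths (3 halved counts). Replicate 7 had 2 halved counts, or 0.0487 CPM (exact 95% Poisson interval 0.0059 to 0.176). Its partner subunit GUCY1B3 was likewise near 0, at 0.00950 ± 0.0132 CPM (SD, n = 8), with no counts in 5 libraries, so no ratio of the subunits can be read. The detected genes were the cyclic nucleotide phosphodiesterases PDE2A, at 22.0 ± 9.36 CPM, and PDE5A, which breaks down cyclic GMP, at 13.8 ± 4.62 CPM (SD, n = 8).

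In the prostanoid branch the constitutive cyclooxygenase was detected and the inducible one was not. PTGS1 (chromosome 9, 125133229 to 125157981, plus strand, 11 exons) had 15.8 CPM at its lowest, a median of 20.8 and 25.8 at its highest (mean 20.8 ± 3.27, SD, n = 8). Replicate 7 was the lowest and replicate 6 the highest. PTGS2 (chromosome 1, 186640944 to 186649559, minus strand, 10 exons) had 0.0710 CPM at its lowest, a median of 0.267 and 0.588 at its highest (mean 0.288 ± 0.163, SD, n = 8), that is 3 to 21 halved counts. Again replicate 6 was the highest, and replicate 8 the lowest. Counting error alone gave exact 95% Poisson intervals of 0.364 to 0.899 CPM in replicate 6 and 0.0146 to 0.207 CPM in replicate 8. PTGS2 was below PTGS1 in 8 of 8 libraries, by a log2 ratio of -4.71 ± 0.28 on RPKM + 0.1 (exact permutation p = 0.00781, adjusted p = 0.0125, n = 8). PTGS2 was under 1 CPM and PTGS1 over it in all 8 libraries, so the detection calls already gave the direction and the p-value adds nothing to them. The mean of PTGS2 lies below the added 0.1, so the size of the ratio is set largely by it: the ratio was -2.26 with 1 added and -5.85 on CPM + 0.1.

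PTGIS (chromosome 20, 48120411 to 48184707, minus strand, 10 exons), prostacyclin synthase, had 12.1 CPM at its lowest, a median of 16.3 and 21.3 at its highest (mean 16.4 ± 3.34, SD, n = 8). Replicates 2 and 8 were the highest, at 20.3 and 21.3 CPM, and replicates 3 and 5 the lowest, at 12.1 and 12.7. It stood at 2.95 ± 0.599 RPKM, above 19.5% of detected genes, and PTGS1 at 4.15 ± 0.650 RPKM (SD, n = 8), above 25.5%. PTGIS exceeded PTGS2 by 4.22 ± 0.52 and PTGES, the inducible prostaglandin E synthase, by 2.27 ± 0.26 (log2 ratios on RPKM + 0.1, each in 8 of 8 libraries, exact permutation p = 0.00781, adjusted p = 0.0125, n = 8). With 1 added these were 1.88 and 1.36, on CPM + 0.1 they were 5.50 and 4.00, and on the authors' values the ratio to PTGES was 3.12. The detection calls already gave the direction of PTGIS to PTGS2 too. That of PTGIS to PTGES could be read from the levels: PTGES had 0.531 ± 0.114 RPKM (SD, n = 8) and PTGIS at least 2.17 RPKM. The p-values add nothing to these directions.

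**Figure D2:**
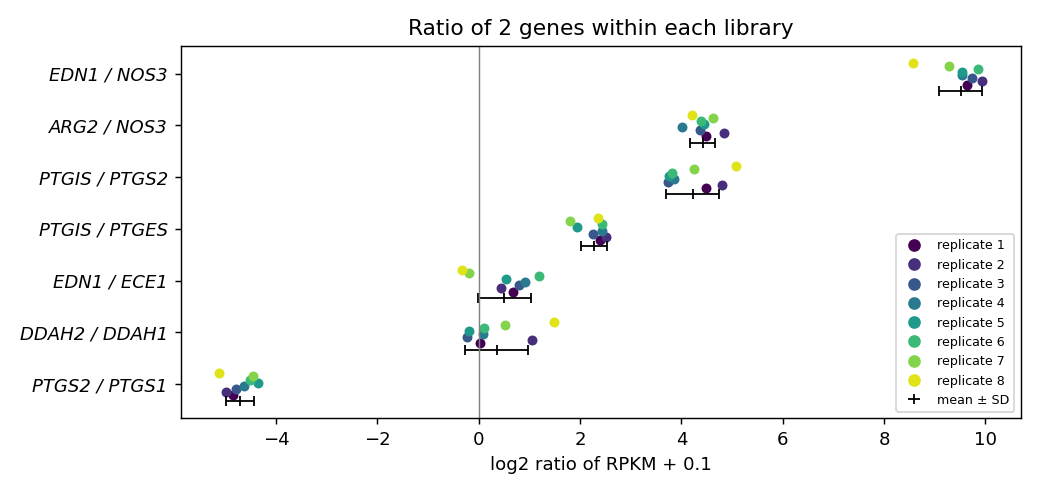
Log2 ratio of RPKM + 0.1 for 7 gene pairs (rows), with 1 point per library coloured by replicate and the mean ± SD as a bar under the points. The ratios to NOS3 and PTGS2 and that of PTGIS to PTGES lie on 1 side of 0 in all 8 libraries, whereas EDN1 to ECE1 and DDAH2 to DDAH1 lie on both sides.

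Of the 9 terminal prostanoid synthases, 4 were detected, near the 51.3% of all genes in the data. PTGES3, a cochaperone also described as a prostaglandin E synthase, had 263 ± 9.90 RPKM, PTGES2 30.9 ± 9.09 and the carbonyl reductase CBR1 28.8 ± 6.61 RPKM (SD, n = 8). PTGES, the thromboxane synthase TBXAS1 and the prostaglandin D synthase PTGDS lay near the detection level, with 0.929 ± 0.199, 1.26 ± 0.160 and 1.25 ± 0.318 CPM (SD, n = 8), and reached 1 CPM in 2, 7 and 6 of 8 libraries. HPGDS, a second prostaglandin D synthase, and AKR1C3, which makes prostaglandin F, had means of 0.00350 and 0.239 CPM. Upstream, 3 of the 7 genes of arachidonate release and cyclooxygenation were detected: besides PTGS1, the phospholipases PLA2G4C at 6.10 ± 0.965 and PLA2G6 at 1.04 ± 0.355 RPKM (SD, n = 8). The phospholipases PLA2G4A, PLA2G4B and PLA2G2A were not, with means of 0.529, 0.450 and 0.0384 CPM. Downstream, 5 of 6 transport and breakdown genes were detected, among them the prostaglandin carrier SLCO2A1 at 32.0 ± 4.11, PTGR1, which reduces prostaglandin metabolites, at 25.8 ± 1.93 and CBR3 at 24.4 ± 10.5 RPKM (SD, n = 8). The breakdown gene HPGD was not detected, at 0.0193 ± 0.0226 CPM (SD, n = 8) with no counts in 4 libraries.

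Among 10 prostanoid receptor genes and relatives, 4 were detected, beside 51.3% of all genes in the data. PTGER4, a receptor for prostaglandin E2, was the highest per length, at 18.6 ± 4.71 RPKM (63.8 ± 16.2 CPM, SD, n = 8), against 2.59 ± 0.592 RPKM for the next, TBXA2R. TBXA2R, the thromboxane receptor, had 6.85 ± 1.57 CPM, PTGFR, the prostaglandin F receptor, 3.82 ± 0.957 CPM and PTGER1 2.77 ± 0.594 CPM (SD, n = 8). PTGIR, the receptor of the PTGIS product prostacyclin, was not detected, at 0.621 ± 0.187 CPM (SD, n = 8) with at most 0.953. PTGER2 and PTGFRN, which encodes a protein that binds the prostaglandin F receptor, had 1.09 ± 0.564 and 1.40 ± 0.485 CPM (SD, n = 8), under 1 CPM in at least 1 library. PTGER3, PTGDR and PTGDR2 had means of 0.107, 0.0129 and 0.199 CPM.

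**Figure D3:**
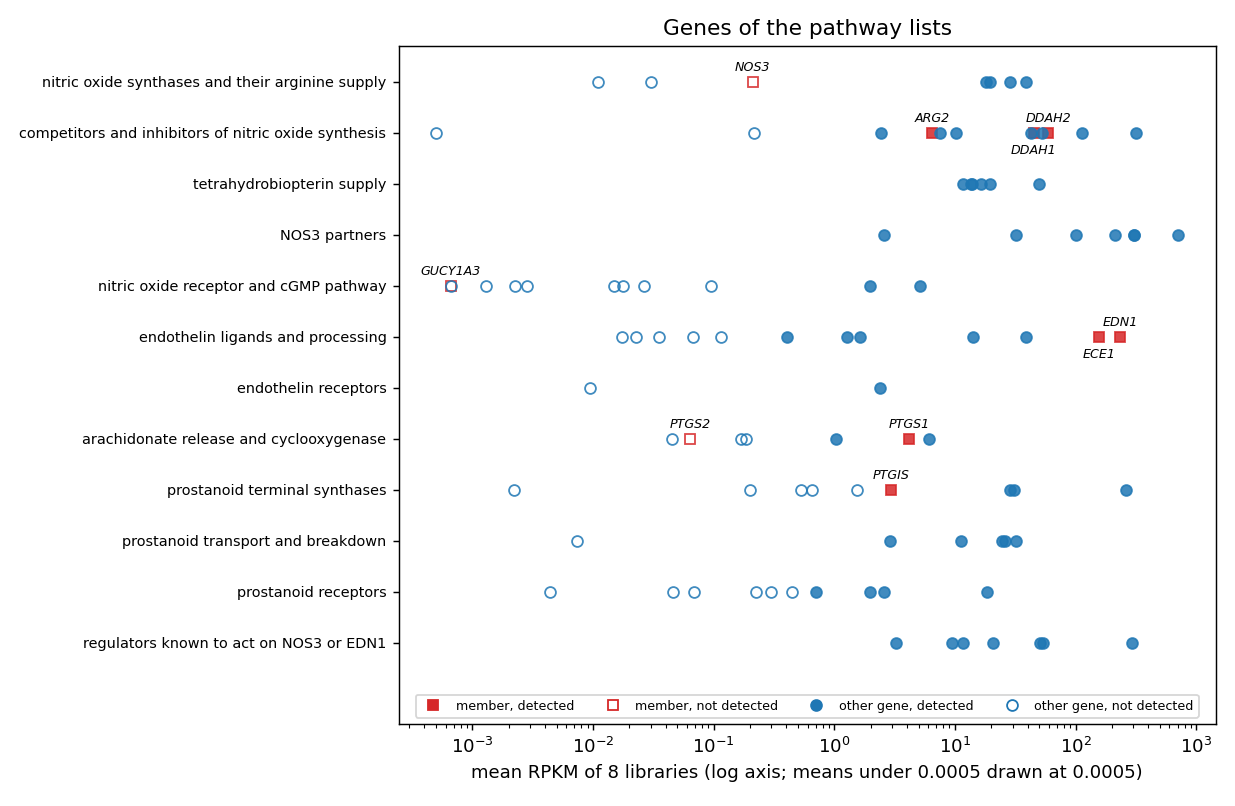
Mean RPKM over 8 libraries (log axis) of the 96 genes of the 12 pathway lists, 1 row per list, with squares for the 10 genes of the set, circles for the others, filled symbols for detected genes and means under 0.0005 drawn at 0.0005. Of the 96 genes 60 were detected, beside 51.3% of all genes in the data. The rows ran from 2 of 11 in the nitric oxide receptor and cyclic GMP row to 7 of 7 for the NOS3 partners.

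Whether any of these genes varied between replicates more than genes of like abundance was tested across all 11980 detected genes, by the goodness-of-fit statistic of an edgeR model relative to its abundance trend. This called 558 genes, or 4.66%, at an adjusted p-value under 0.05, and 0 of the 7 detected members (0 also at an unadjusted p under 0.05, beside 13.1% of all genes). EDN1 was the nearest, with an unadjusted p of 0.0637 and an edgeR adjusted p of 0.446. Its call depended on the model: with each library's trend on length and GC content removed its edgeR adjusted p was 5.34e-05, where 745 of 11632 genes (6.4%) were called. With the DESeq2 fitted trend its adjusted p was 0.00616, a setting that also called DDAH2 and that called 2811 genes (23.5%). The common coefficient of variation of the edgeR fit, the typical spread of a gene between libraries, was 24.05% in the main fit. It was 16.36% with the length and GC trend removed and 8.765% without replicates 2, 7 and 8. A gene not called in the main fit was thus not shown to be steady.

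The SD of EDN1 over libraries was 0.48 on log2(CPM + 1), 0.53 with the length and GC trend removed and 0.48 on the authors' values. Over all detected genes the median SD was 0.25, 0.16 and 0.16 on these scales. DDAH1 (0.23, 0.10 and 0.06), DDAH2 (0.39, 0.12 and 0.15) and ECE1 (0.11, 0.07 and 0.06) had smaller SDs with either correction. PTGIS (0.28, 0.35 and 0.38), ARG2 (0.14, 0.17 and 0.15) and PTGS1 (0.22, 0.20 and 0.21), like EDN1, changed little or had larger ones. On the authors' values PTGIS was highest in replicates 8 and 2 (4.77 and 4.59) and lowest in replicate 3 (3.66), while EDN1 was lowest in replicates 8 and 7 (9.11 and 9.18) and highest in replicate 6 (10.44). Replicates 7 and 8, at 281 and 268 CPM of EDN1, and replicate 2, at 509 CPM, are the 3 libraries in which short transcripts were counted more, and the part of this in the EDN1 level was not tested. Without replicates 2, 7 and 8 the edgeR adjusted p of EDN1 was 0.0504.

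**Figure D4:**
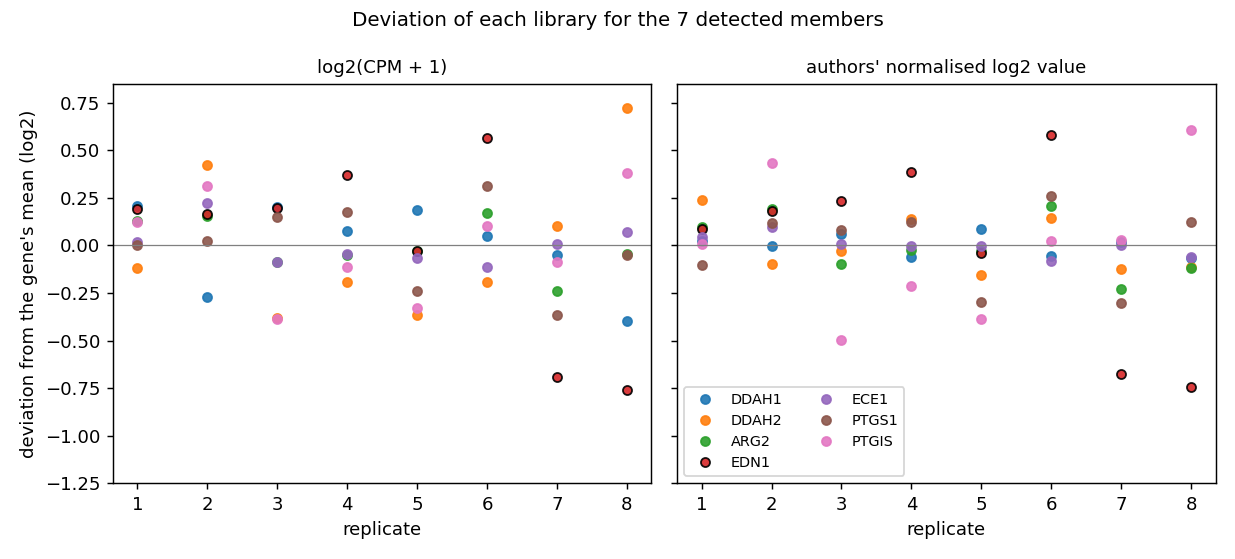
Deviation of each library from the gene's mean (log2, y axis) by replicate (x axis) for the 7 detected members, on log2(CPM + 1) at left and on the authors' normalised values at right. DDAH2 in replicate 8 falls from 0.72 at left to -0.11 at right, while EDN1 in replicates 7 and 8 stays between -0.68 and -0.76 in both panels.

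In the pathway lists, 3 of the 60 detected genes were called as varying beyond the trend, beside 4.66% of all genes tested. The number depended on the setting: 18 listed genes were called with the DESeq2 fitted trend (23.5% of all genes), 8 with the length and GC trend removed (6.4%) and 5 without replicates 2, 7 and 8 (2.42%), the last being ASS1, FOXO1, GATA2, KLF4 and PDE2A, of which FOXO1 is named after its values were seen. The 3 were SLC7A2 (edgeR adjusted p = 0.00126), HIF1A, the oxygen-regulated factor (edgeR adjusted p = 0.00262), and KLF4, a shear-stress factor known to raise NOS3 (edgeR adjusted p = 0.0263). SLC7A2 had 105 and 111 CPM in replicates 8 and 2 and 294 to 430 in the others. HIF1A had 65.2, 105 and 137 CPM in replicates 8, 2 and 7 and 233 to 269 in the others. KLF4 ran from 11.4 CPM in replicate 8 to 52.4 in replicate 6. All 3 were lowest in replicates 8 and 2, where long transcripts were counted least, and the part of this in their levels was not tested. With the length and GC trend removed all 3 were called again, and without replicates 2, 7 and 8 KLF4 was called and SLC7A2 and HIF1A were not. HIF1A and KLF4 were not called without replicate 8, nor KLF4 without replicate 6. All 7 regulators listed as acting on NOS3 or EDN1 were detected, beside 51.3% of all genes in the data. EPAS1, the endothelial hypoxia factor, was the highest at 294 ± 46.1 RPKM, followed by GATA2, which drives EDN1 transcription, at 54.1 ± 9.45 and HIF1A at 50.6 ± 21.2 RPKM (SD, n = 8).

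For the 3 detected members with the widest spread on log2(CPM + 1) (on the authors' values DDAH2 ranked below PTGS1 and ARG2), the genes with the most similar profile over the 8 libraries were found by Pearson's r on the authors' values among 11980 detected genes, as a description. For EDN1 these were TYK2 (r = 0.984), SLC35E2B (r = 0.976) and DNMT3B (r = 0.972). For PTGIS they were ITSN1 (r = 0.998), HLA-DPA1 (r = 0.991) and MMP24 (r = 0.990), and for DDAH2 they were HBXIP (r = 0.965), IFNGR2 (r = 0.964) and ST3GAL2 (r = 0.961). All points come from the same 8 libraries, which also share the trend with transcript length. On log2(CPM + 1), r was -0.259 for TYK2 with EDN1 and -0.197 for ITSN1 with PTGIS, against 0.928 to 0.993 for the other 7.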

How the data were processed

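Polyadenylated RNA of hCMEC/D3 was sequenced in 8 libraries of 1 group, from TruSeq RNA v2 kits per the labels' protocols. CASAVA 1.9, TopHat2 2.0.6, HTSeq and the build hg19 are named in the submitters' processing notes. Annotation and use of strand are not given in the sources used here. The authors deposited raw counts per gene (186768 values, 0 of them odd), per the file headers, and log2 values made by conditional quantile normalisation (CQN), per the file headers, for 13962 genes, among them 8 of the 10 members (all but GUCY1A3 and PTGS2). That these are on a log2 scale was judged from the values. Total counts were 69388544 to 90205244 per library, and intervals cover counting error only.

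CPM used TMM-scaled library sizes (edgeR 4.0.16, R 4.3.3). RPKM used lengths of canonical transcripts (the longest where none is marked) from GENCODE 44 on GRCh37, matched for 21444 of 23346 genes (1982 through RefSeq synonyms, GUCY1A3 as GUCY1A1). Table starts count from 0 and are printed with 1 added, which gave 5070 exact matches to the reference, against 681 as given. Variation was tested with an intercept-only edgeR model and its goodness-of-fit statistic, Benjamini-Hochberg adjusted over 11980 genes. Gene pairs used exact sign-flip permutation over 256 sign patterns, adjusted over 8 pairs, as the design set out. The fit was tested on simulated counts of 11980 genes: 0 were called with none changed, and 176 of 200 genes raised 4-fold in 1 library were called, with 3 unchanged ones. The share of wrong calls in the real libraries, whose trends with transcript length differ, was not tested. Alternatives were DESeq2 1.42.0 size factors and trend, total counts, other filters, scales and pseudocounts, removal of length and GC trends, and leaving out libraries.

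The members, gene lists, pairs and naming rule were chosen with earlier results of these data known. The text names all members, all nitric oxide and terminal prostanoid synthases, arginases, endothelin ligands and receptors of the lists, GUCY1B3, the 3 highest detected genes of each list (1 of them is not reported here), genes called as varying, genes overlapping a member, and the 3 genes most like each of 3 members. Marker genes are named for the check of cell identity. HPGD, PLA2G4A, PLA2G4B and PLA2G2A are named after their values were seen.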

Additional observations from a re-analysis of the deposited data

Results flagged for a closer look

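Among 45 genes checked for a library standing far from the other 7, 2 had a gap to the next library larger than Dixon's limit of 0.526 of the whole range, which chance alone exceeds in about 1 in 20 groups. GUCY1A3 had 0.0487 CPM in replicate 7, from 2 halved counts, and no counts in the other libraries. With 7 values of 0, any count in 1 library passes the limit, so the rate of 1 in 20 does not apply to this gene. CALM2 had 1015 CPM in replicate 7, and the next highest library had 884 CPM (gap 0.567 of the range).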

How the results depend on the processing

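No paired analysis was possible because all libraries form 1 group. Of the alternative values for the main results, 118 kept the direction and, where a test was possible, the side of the threshold, or stayed within 1.5 times the main count, and 11 did not. Many of the 118 belong to pairs with NOS3, PTGS2, PTGES or GUCY1A3. Their direction was already given by the levels or, for the GUCY1A3 pair, could not be read. The 118 are therefore no measure of how stable the open results were.

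The number of genes varying beyond the trend was 558, but 2811 with the DESeq2 fitted trend and 297 without replicates 2, 7 and 8. Leaving out 1 library gave 381 to 491, the lowest without replicate 8. Members called went from 0 to 2 with the DESeq2 trend and to 1 with length and GC trends removed, where 745 of 11632 genes were called. The ratio of DDAH2 to DDAH1 was 0.36, but -1.36 on CPM, -0.51 on the authors' values and -0.0382 without replicates 2, 7 and 8. It passed the threshold with length and GC trends removed (0.36, adjusted p = 0.0104, exact permutation test, n = 8). The ratio of EDN1 to ECE1 was 0.51 and turned to -0.81 on CPM, which does not correct for the longer ECE1 transcript, and leaving out 1 library gave 0.41 to 0.63. It passed the threshold without replicate 7 or 8, and no other pair crossed it when 1 library was left out. With 5 libraries no exact p under 0.0625 is possible, so those ratios carry no test. Removal of the length and GC trend was not run for undetected genes, since it was fitted on detected ones, nor could the authors' values be used for GUCY1A3, PTGS2 and their pairs. Depth limits NOS3, PTGS2 and GUCY1A3, at 46 halved counts per library or fewer.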
